A study of Mus musculus with 17 samples.

Results

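The genes examined here make cholesterol and fatty acids, sense sterol supply, and carry cholesterol out of cells. The list holds 40 genes chosen by function, with earlier results of these data known. Of them 37 were measured among 18194 genes in all. Acat2, Soat1 and Nr1h2 were not analysed here. Each gene was represented by the probe set that is annotated to it alone and had the highest mean log2 signal over the 17 arrays. RNA came from the thoracic spinal cord of female C57BL/6 mice, with 1 array per mouse. The labels give an age of 8 weeks, but immunisation preceded the cytokine injection by weeks, so EAE mice were older when RNA was taken, and their age at sampling is not given in the sources used here. The 6 naïve mice were untreated. The 5 isotype control mice and the 6 anti-RGMa mice carried targeted experimental autoimmune encephalomyelitis (targeted EAE), which the study induced with a myelin oligodendrocyte glycoprotein peptide in complete Freund's adjuvant, a laminectomy with an injection of TNF-α and IFN-γ into the cord, and pertussis toxin. Both diseased groups received intravenous antibody at 10 mg/kg, first at 9 days post cytokine injection (DPI), either palivizumab as the isotype control or a humanized antibody to repulsive guidance molecule-a (RGMa). Cord pieces were 4.5 mm wide, in EAE mice around the injection site at 14 DPI. The naïve group had neither immunisation, surgery nor antibody, so a difference from naïve cannot be assigned to one of them, and their parts cannot be told apart.

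Cholesterol is built from acetyl-CoA through mevalonate, isoprenoid units, squalene and lanosterol, and it cannot pass from blood into the central nervous system in useful amounts, so neural cells make their own. Oligodendrocytes use large quantities of it in the myelin sheath, together with fatty acids. When sterol in the endoplasmic reticulum runs low, SCAP carries the SREBP transcription factors to the Golgi for activation, and INSIG proteins hold SCAP back when sterol is plentiful. When cholesterol accumulates, oxysterols activate the liver X receptors (LXR), which switch on the efflux pumps ABCA1 and ABCG1.

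In the group where it was higher, the mean log2 signal of each of the 37 genes exceeded 7. No pair of arrays held identical values. Oligodendrocyte markers were present in every array, with a mean log2 signal over 13 genes between 12.32 and 12.88. The mean of 8 thoracic cord markers was lower in every EAE array than in any naïve array. It ran from 7.92 to 8.24 in naïve cord, from 7.06 to 7.39 with isotype control antibody and from 6.84 to 7.78 with anti-RGMa. The cause of that difference was not tested. The mean of 13 macrophage markers was at most 6.90 in naïve cord (lowest 6.47), while EAE arrays ran from 10.51 to 11.57 with isotype control antibody and from 9.95 to 11.31 with anti-RGMa. Isotype control replicates 3, 4 and 5 stood apart in skeletal muscle markers, with a mean over 10 genes of 9.27, 12.95 and 9.46 against 5.98 and 5.42 in replicates 1 and 2 and between 5.07 and 8.49 in naïve mice. Counts of the isotype control group against naïve cord are also given without them.

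With the isotype control antibody, the cholesterol synthesis genes were lower than in naïve cord along most of the pathway, with 14 of 17 past the adjusted threshold, while the efflux pump Abca1 was 5.05-fold higher. A gene was called changed where its fold change exceeded 1.5 and its limma p before adjustment was under 0.05. Of the 37 genes, 12 fell and 2 rose, where 15.5% of all genes fell and 18% rose. At a Benjamini-Hochberg adjusted p under 0.05, 24 of the 37 were lower and 3 higher, where 27.2% of all genes were lower and 24.6% higher (51.8% in either direction). The isotype control and naïve arrays did not overlap for 23 of the 37 genes, where 38.6% of all genes had no overlap. The median log2 change was -0.43 over the 37 genes and -0.04 over all genes. Of the 14 calls, 8 held in each of the 27 other settings that were run, namely those of Fdps, Tm7sf2, Msmo1, Nsdhl, Sc5d, Insig1, Cyp46a1 and Abca1. Leaving out isotype control replicates 3, 4 and 5 kept only replicates 1 and 2 of that group. The counts were then 12 lower and 4 higher, and 13 were lower at the adjusted threshold. Arrays centred on their median signal gave 18 lower and 1 higher, with the median of all genes shifted by -0.14, and over all genes 3829 lower and 2784 higher in place of 2822 and 3267.

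**Figure D1:**
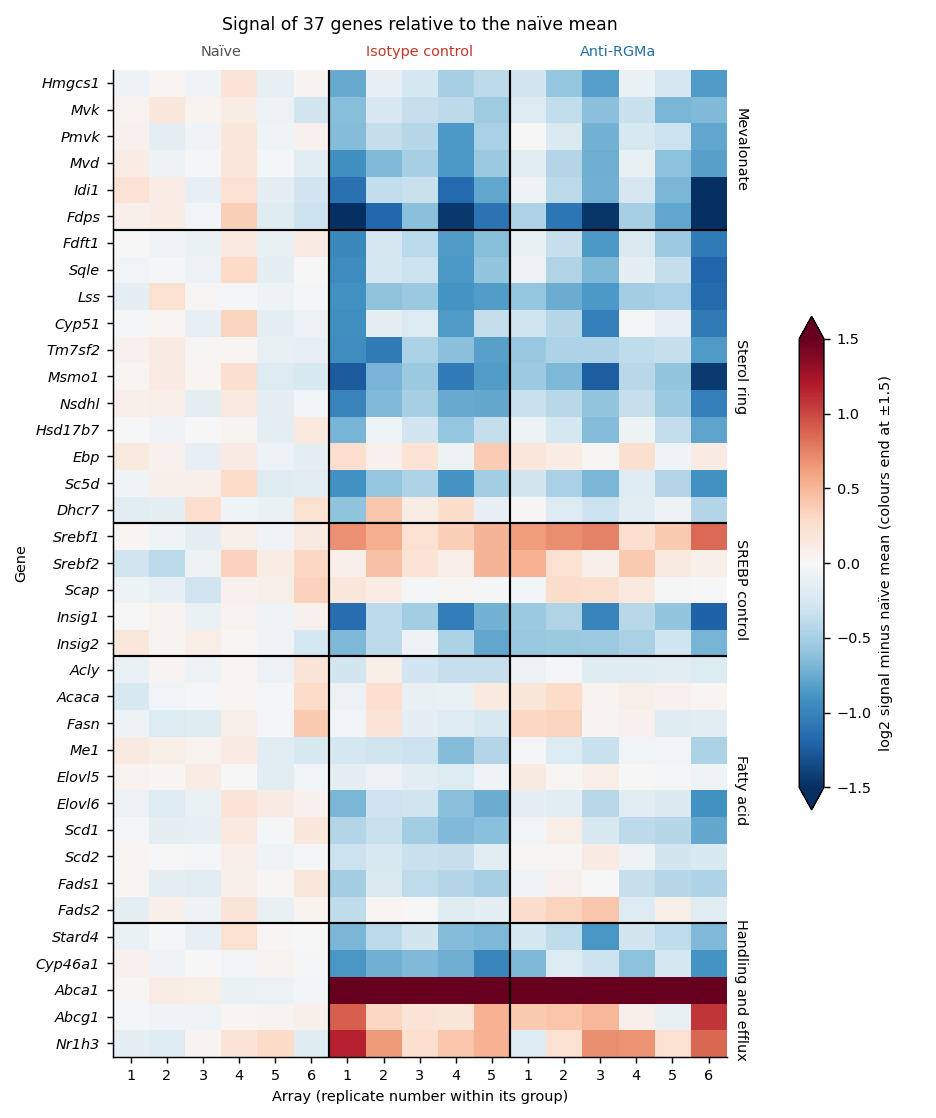
Log2 signal of the 37 genes (rows, grouped by step) in each of the 17 arrays (columns, grouped by treatment), as the difference from the naïve mean of that gene, with colours ending at 1.5 in either direction. Apart from Ebp, which is above the naïve mean in 9 of 11 EAE arrays, and Dhcr7, above it in 4, the sterol synthesis rows are blue in nearly all EAE arrays, on average deepest in isotype control replicate 1 and anti-RGMa replicate 6, and the Abca1 row is red in all 11 EAE arrays.

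The mevalonate and isoprenoid step was measured by 6 genes. Mvd, Idi1 and Fdps fell, and the other 3 had lower values that passed the adjusted threshold alone. Over all genes 15.5% fell and 27.2% were lower at the adjusted threshold. The median of the step was -0.63. The largest difference was that of Fdps, which encodes farnesyl diphosphate synthase and stands where the routes to sterols, dolichol and protein prenylation part. Its log2 signal in naïve mice had a lowest value of 11.43, a median of 11.77 and a highest value of 12.10. In isotype control replicates 1 to 5 it was 10.11, 10.57, 11.12, 10.30 and 10.65. In the anti-RGMa group it ran from 10.00 through a median of 10.82 to 11.29. No EAE array reached the lowest naïve array, and the EAE groups overlapped each other over most of their range. The signal fell by 56.5% with the isotype control antibody, a log2 change of -1.20 with a standard error of 0.23 (limma, adjusted p = 0.000439). Idi1, the isomerase that balances the isoprenoid building blocks, changed by -0.75, and Mvd, the decarboxylase that ends the mevalonate stage, by -0.70. Hmgcs1, the synthase that commits acetyl units to the pathway, changed by -0.41 (adjusted p = 0.0267). The kinases Mvk and Pmvk changed by -0.43 and -0.56.

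The sterol ring step had 11 genes, of which 7 fell, where 15.5% of all genes fell, and its median was -0.62. The fall took in Fdft1, which makes squalene (-0.62), Sqle, which oxidises it (-0.60), and Lss, which closes the rings to lanosterol (-0.76). It took in the demethylating enzymes Msmo1 (-0.88) and Nsdhl (-0.74), the reductase Tm7sf2 (-0.78) and the desaturase Sc5d (-0.67). Msmo1, the sterol-C4-methyl oxidase, had a naïve log2 signal from 11.83 through a median of 12.09 to 12.30. In isotype control replicates 1 to 5 it was 10.80, 11.36, 11.50, 11.00 and 11.21. In the anti-RGMa group it ran from 10.62 through 11.42 to 11.64. All 11 EAE arrays lay below all 6 naïve arrays. With the isotype control antibody the signal fell by 45.6% (standard error of the log2 change 0.18, adjusted p = 0.000769). Hsd17b7, the ketoreductase that works with Nsdhl, had -0.39 (adjusted p = 0.0254). Cyp51, the lanosterol demethylase, had -0.49 without passing either threshold (adjusted p = 0.0546), although each of the 5 isotype control arrays was below the naïve range. The isomerase Ebp and the reductase Dhcr7, which act late in the pathway as Sc5d does, had 0.17 and 0.01, and naïve and EAE arrays overlapped for both.

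**Figure D2:**
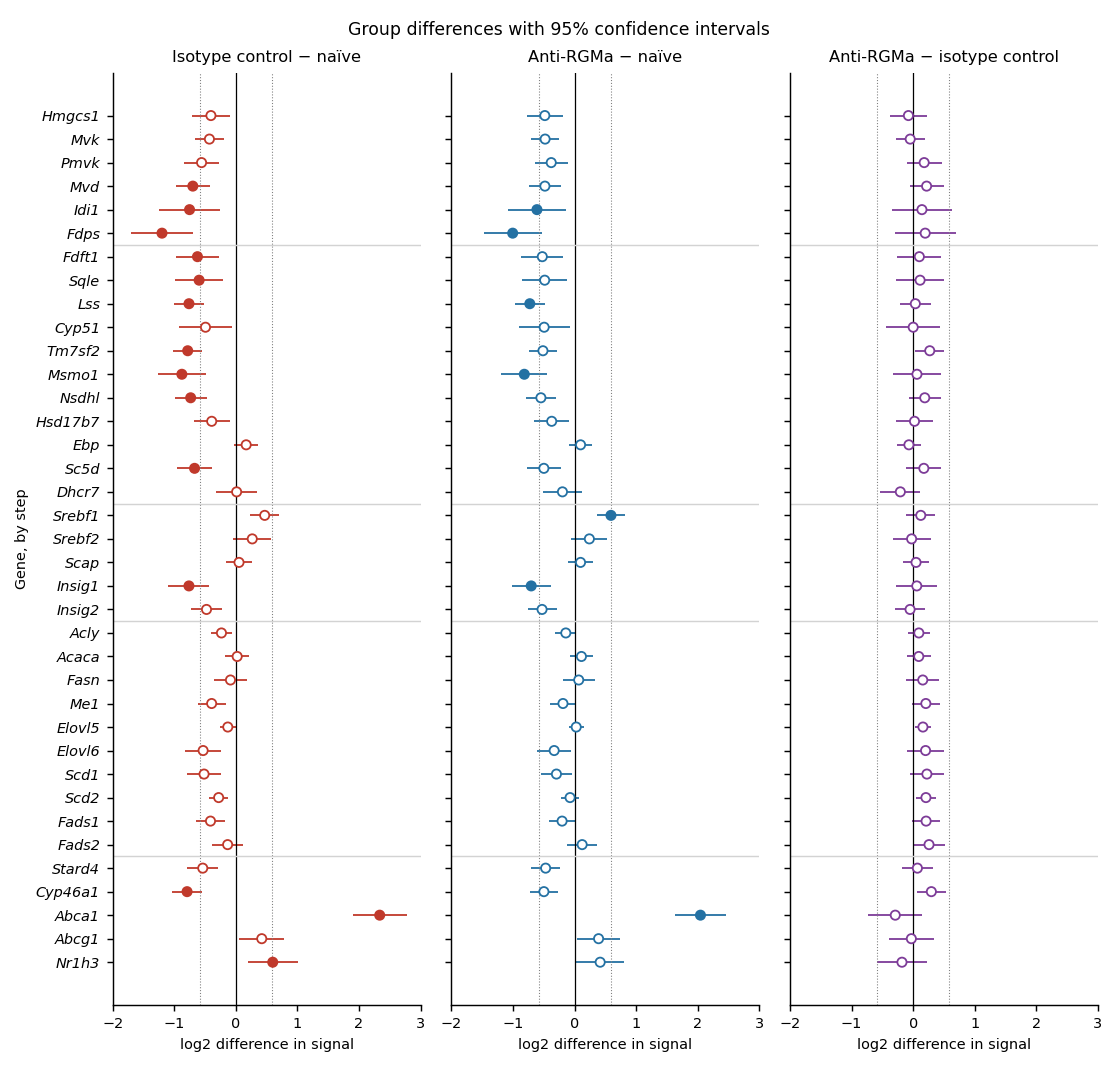
Log2 difference in signal between groups for each of the 37 genes, ordered by step, with 95% confidence intervals from limma. Filled points passed the threshold of p and fold (dotted lines mark 1.5-fold), which 14 genes did in the first panel, 7 in the second and 0 in the third.

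The 5 genes of SREBP control did not move together. Insig1, the sterol-sensing anchor of SCAP that is itself an SREBP target, had a naïve log2 signal from 11.14 through a median of 11.26 to 11.31. In isotype control replicates 1 to 5 it was 10.09, 10.84, 10.72, 10.21 and 10.53, and in the anti-RGMa group it ran from 10.03 through 10.67 to 10.82. Both EAE groups were clear of the naïve range, and with the isotype control antibody the signal fell by 41.1% (adjusted p = 0.000676). Insig2, its paralogue, had -0.48 (adjusted p = 0.0025). Srebf1, whose protein drives mainly fatty acid genes and whose transcription LXR raises, was higher at the adjusted threshold alone (0.47, adjusted p = 0.00199), and each of the 5 isotype control arrays lay above all naïve arrays. Srebf2, whose protein drives the cholesterol genes, had 0.27 (adjusted p = 0.143) at its brightest probe set. At its other probe set, nearly as bright (mean log2 signal 9.49 against 9.54), Srebf2 had -0.05. Scap had 0.05 (adjusted p = 0.716).

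The reference promoters of 29 of the 37 genes are shown through 4 of them, because most sterol genes had lower signals in EAE cord and Abca1 a higher one. The sequences are the 250 bases before the RefSeq gene start, on assembly GRCm38.p6 and on the strand of the gene, and the capitals mark the motifs named after them, searched on both strands, so that the CCAAT and GC boxes of the opposite strand appear as ATTGG and CCGCCC. Hmgcs1 is at chr13:119690101-119690350 on the plus strand, Idi1 at chr13:8885356-8885605 on the plus strand, Insig1 at chr5:28071162-28071411 on the plus strand and Abca1 at chr4:53159896-53160145 on the minus strand.
Hmgcs1: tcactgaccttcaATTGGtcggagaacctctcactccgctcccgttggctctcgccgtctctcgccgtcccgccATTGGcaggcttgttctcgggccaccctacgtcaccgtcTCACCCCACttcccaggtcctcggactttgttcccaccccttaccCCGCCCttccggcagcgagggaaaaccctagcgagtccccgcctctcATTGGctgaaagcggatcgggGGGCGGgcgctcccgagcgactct
Idi1: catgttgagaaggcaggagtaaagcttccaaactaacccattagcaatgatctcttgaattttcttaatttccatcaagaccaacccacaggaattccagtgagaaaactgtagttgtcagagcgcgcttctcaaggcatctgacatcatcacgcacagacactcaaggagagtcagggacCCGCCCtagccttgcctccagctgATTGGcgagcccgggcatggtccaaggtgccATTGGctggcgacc
Insig1: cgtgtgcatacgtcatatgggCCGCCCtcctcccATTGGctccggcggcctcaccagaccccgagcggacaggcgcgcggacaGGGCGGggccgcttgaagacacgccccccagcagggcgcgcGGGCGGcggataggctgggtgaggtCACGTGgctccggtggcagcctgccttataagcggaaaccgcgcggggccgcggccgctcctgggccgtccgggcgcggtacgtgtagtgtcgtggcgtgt
Abca1: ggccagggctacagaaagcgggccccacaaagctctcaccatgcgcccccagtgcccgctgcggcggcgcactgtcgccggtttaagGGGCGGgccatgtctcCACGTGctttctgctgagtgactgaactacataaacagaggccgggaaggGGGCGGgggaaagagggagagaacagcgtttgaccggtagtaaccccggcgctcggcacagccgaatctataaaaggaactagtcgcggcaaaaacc
The counts are of genes, and a gene with several reference promoters was counted when any of them held the motif. The sterol regulatory element TCACNCCAC, which SREBP proteins bind, was found for 1 of the 29 genes, Hmgcs1. It was found for 1.27% of the 14453 genes on the array with a reference promoter. The E-box CACGTG was found in 7 of the 29 (24.1%, against 8.73% of all promoters), among them Insig1 and Abca1. The CCAAT box, bound by the SREBP partner NF-Y, was in 22 of the 29 (75.9%, against 39.4%), and the GC box GGGCGG, bound by SP proteins, in 23 (79.3%, against 53.4%). These counts describe letters in a short window and are not binding sites. Promoters of Fdps, Fdft1, Sqle, Scd1, Scd2, Fads1, Stard4 and Abcg1 were not analysed here.

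In the fatty acid step, 0 of 10 genes passed the threshold of p and fold at their brightest probe sets with the isotype control antibody. Over all genes 15.5% fell and 18% rose. At the adjusted threshold 6 of the 10 were lower, where 27.2% of all genes were. The median of the step was -0.26. The 6 were Scd1 (-0.52) and Scd2 (-0.28), the stearoyl-CoA desaturases, Elovl6 (-0.53), which lengthens palmitate, Fads1 (-0.41), a desaturase of polyunsaturated fatty acids, Me1 (-0.39), the malic enzyme that supplies NADPH, and Acly (-0.23), which makes cytosolic acetyl-CoA. Acaca and Fasn, the carboxylase and the synthase at the core of fatty acid synthesis, had 0.02 and -0.09. Elovl5 and Fads2, of polyunsaturated fatty acid synthesis, both had -0.13.

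The probe sets of a gene often differed in size of change. Several probe sets existed for 26 of the 37 genes. Counting a gene as fallen when any of its probe sets passed the threshold gave 22 genes in place of 12, where the same rule called 22.9% of all genes. The 10 added genes were Acly, Fads1, Fads2, Hmgcs1, Hsd17b7, Insig2, Mvk, Scd1, Scd2 and Stard4. Scd1 had -0.52 at its brightest probe set and -1.25 at the other, and Scd2 had -0.28 at its brightest and -0.66 and -1.09 at the others. Acly had -0.23 at its brightest probe set and -0.62 at one nearly as bright (mean log2 signal 12.41 against 12.44). It had -1.15 at another, with a mean of 10.43, and its remaining probe sets had means between 2.06 and 4.04. Hmgcs1 had values between -0.43 and -0.40 at its 3 brightest probe sets and -0.96 and -0.78 at the other two. The reverse was seen for Mvd and Idi1, which fell at the brightest probe set and had -0.00 and -0.19 at the second. The probe sets of Me1 opposed each other, with -0.39 and 0.42. Averaging all probe sets of a gene gave 13 fallen genes, of which 8 were among the 12.

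**Figure D3:**
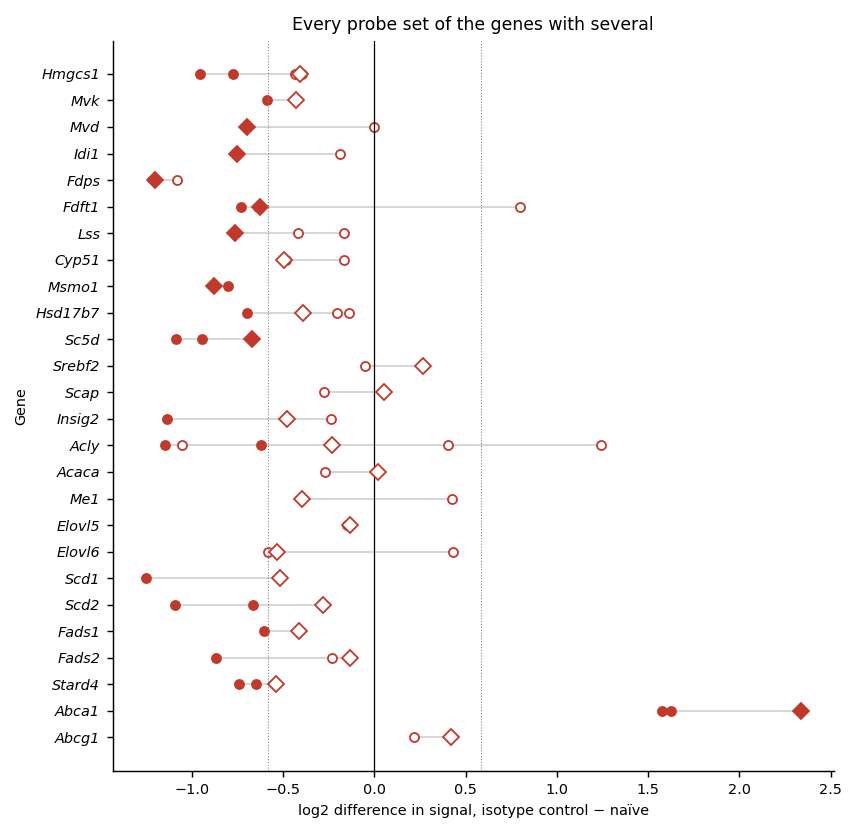
Log2 difference between isotype control and naïve for every probe set of the 26 genes with several, with diamonds for the brightest probe set of a gene and circles for the others. Filled symbols passed the threshold of p and fold (dotted lines mark a fold change of 1.5), and for 10 genes a circle is filled on the lower side while the diamond is open.

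Of the 5 genes of sterol handling and efflux, Abca1 and Nr1h3 rose and Cyp46a1 fell. Abca1, the pump that loads cholesterol and phospholipid onto apolipoproteins, had a naïve log2 signal from 10.28 through a median of 10.38 to 10.50. In isotype control replicates 1 to 5 it was 13.30, 12.51, 12.40, 12.56 and 12.83, and in the anti-RGMa group it ran from 11.98 through 12.37 to 13.23. The lowest EAE array stood far above the highest naïve array. The log2 change was 2.34 (standard error 0.21, adjusted p = 2.59e-07), and the other probe sets of Abca1 gave 1.63 and 1.58. Nr1h3, which encodes LXRα, had 0.60, a fold change of 1.51 that lay just past the threshold (adjusted p = 0.0153), and this call was lost in 8 of the 27 settings. Abcg1, the companion pump of Abca1, had 0.42 (adjusted p = 0.0543). Its value was 11.28 in isotype control replicate 1 and between 10.57 and 10.91 in the other isotype control arrays.

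Cyp46a1, the 24-hydroxylase through which neurons turn over cholesterol, had a naïve log2 signal from 9.34 through a median of 9.38 to 9.45. In isotype control replicates 1 to 5 it was 8.51, 8.66, 8.72, 8.66 and 8.41, and in the anti-RGMa group it ran from 8.49 through 8.91 to 9.18. The EAE arrays all lay below the naïve arrays, and 5 of the 6 anti-RGMa arrays lay above the isotype control mean. With the isotype control antibody the signal fell by 42.3% (adjusted p = 2.89e-05). Neuron markers were lower in the same comparison, with 11 of 12 fallen and a median of -1.13, and their part in the Cyp46a1 result was not tested. Stard4, a carrier of sterol between membranes, had -0.54 (adjusted p = 0.00116).

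**Figure D4:**
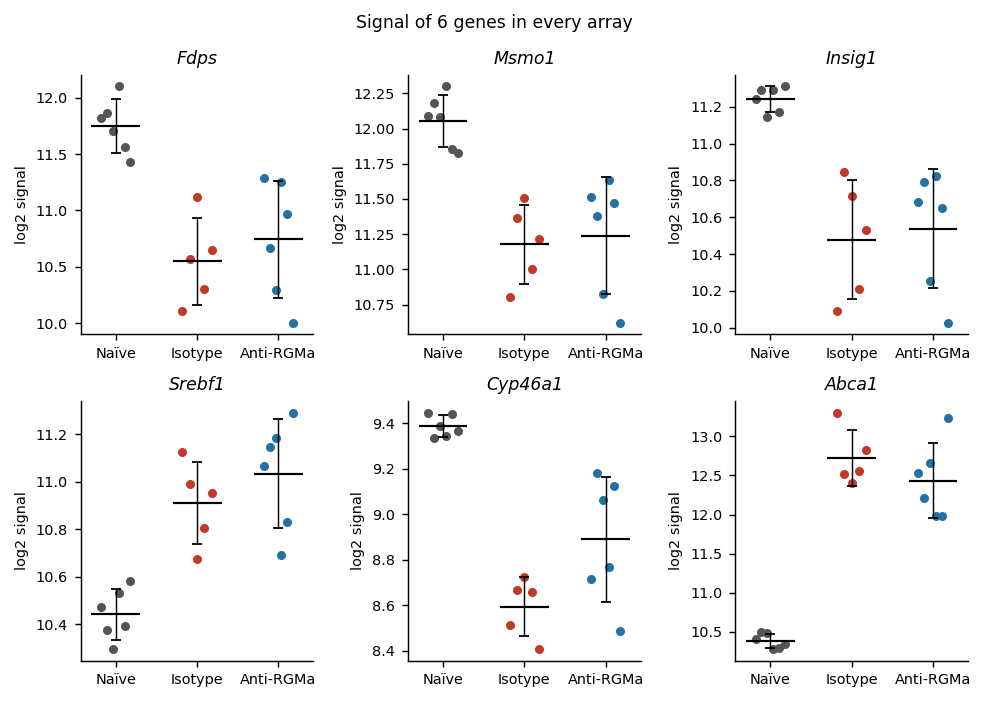
Log2 signal of Fdps, Msmo1, Insig1, Srebf1, Cyp46a1 and Abca1 in every array, with the group mean as a line and 1 standard deviation as a bar (6 naïve, 5 isotype control and 6 anti-RGMa mice). For these 6 genes, chosen mostly for a large change, no EAE array fell within the naïve range. Over all genes, 38.6% had no overlap between isotype control and naïve arrays, and 27.7% had none between anti-RGMa and naïve arrays.

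Against the same naïve mice, the anti-RGMa group had lower signals of the cholesterol synthesis genes and a higher signal of Abca1, with fewer genes past the threshold. Of the 37 genes, 5 fell and 2 rose, where 9.12% of all genes fell and 14% rose. The 5 were Idi1 (-0.61), Fdps (a signal that fell by 50.2%), Lss (-0.73), Msmo1 (-0.82) and Insig1 (-0.70). Abca1 rose by 2.05, a fold change of 4.13, and Srebf1 by 0.59, a fold change of 1.51 at the edge of the threshold that was lost in 9 of the 27 settings. At the adjusted threshold 18 genes were lower and 2 higher, where 21.6% and 20.3% of all genes were (41.9% in either direction). The groups did not overlap for 13 of the 37, where 27.7% of all genes had no overlap. The median over the 37 genes was -0.37 and that over all genes -0.03. For the 17 genes of the mevalonate and sterol ring steps together, the median was -0.49 with 4 fallen, beside -0.62 with 10 fallen in the isotype control group. Both comparisons share the naïve arrays, and a count of calls in each is no test of their difference. The fatty acid step had 0 of 10 genes past either threshold at their brightest probe sets, with a median of -0.11. Another probe set each of Scd1 (-1.05), Acly (-0.81), Scd2 (-0.80) and Fads2 (-0.62) was lower past the threshold of p and fold. The second probe set of Me1 had 0.49. Centring on the median signal moved the count to 14 lower and 1 higher, with all genes shifted by -0.10 and 2430 lower and 2211 higher in place of 1659 and 2553. Counting any probe set gave 16 lower, where that rule called 16.5% of all genes. Averaging the probe sets of each gene gave 7 lower, of which 2 were among the 5, and took Fdps to -0.45. Its second probe set had a mean log2 signal of 0.93. The calls of Msmo1, Insig1 and Abca1 held in each of the 27 settings.

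Between the antibody groups, the direct test of treatment, none of the 37 genes was called, where 1.22% of all genes were higher and 2.72% lower (3.94% in either direction). None was called at any of its probe sets either, where that rule called 2.6% of all genes higher and 4.23% lower. At the adjusted threshold 0 of the 37 passed, where 0.0055% of all genes, a single gene, did. At an unadjusted p under 0.05, 5 of the 37 genes had higher values in the anti-RGMa group and 0 lower ones, where 9.01% of all genes had higher and 6.77% lower values. They were Cyp46a1 (0.30, adjusted p = 0.252), Tm7sf2 (0.27, adjusted p = 0.278), Fads2 (0.26, adjusted p = 0.314), Scd2 (0.21, adjusted p = 0.24) and Elovl5 (0.16, adjusted p = 0.263). The differences ran from -0.29 for Abca1 to 0.30 for Cyp46a1, with a median of 0.10, beside 0.01 over all genes. Of the 37 genes, 28 had a value above 0, which is 75.7% against 51.9% of all genes. All 10 genes of the fatty acid step were above 0, with a median of 0.20 and a range from 0.09 to 0.26, while the sterol ring step had a median of 0.06. Without isotype control replicates 3, 4 and 5, Acly (-0.05) and Fasn (-0.006) were below 0 and the rest of that fatty acid step stayed above it. Acly also had -0.06 when probe sets were averaged. Its bright probe sets had 0.09, 0.30 and 0.33. Its dim ones, with mean log2 signals of 4.04, 4.02 and 2.06, had -0.38, -1.14 and 0.45. The mean over these 10 genes ran from 11.83 to 11.99 in naïve mice, and from 11.51 to 11.80 with isotype control antibody, while anti-RGMa arrays ran from 11.55 to 11.96. Scd2, the main stearoyl-CoA desaturase of brain, had a log2 signal of 14.46, 14.56, 14.45, 14.43 and 14.61 in isotype control replicates 1 to 5, and in the anti-RGMa group it ran from 14.51 through a median of 14.75 to 14.90. The groups overlapped, and at this brightest probe set the anti-RGMa median of Scd2 lay within the naïve range, which ran from 14.72 to 14.88. At the other probe sets of Scd2 the anti-RGMa group was below naïve cord, with log2 changes of -0.42 and -0.80. In the same direction, oligodendrocyte markers had a median difference of 0.23 (0 of 13 called), astrocyte markers 0.30 (10 of 11 above 0, 0 called) and neuron markers 0.46 (12 of 12 above 0, 2 called). The part of these markers in the fatty acid values was not tested. The antibody groups overlapped for each of the 37 genes, and 0.808% of all genes had groups that did not overlap.

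The 95% interval of the difference between the antibody groups lay within a fold change of 1.5 in both directions for 33 of the 37. The exceptions were Idi1, with an interval from -0.35 to 0.63, Fdps, from -0.30 to 0.69, Abca1, from -0.73 to 0.15, and Nr1h3, from -0.59 to 0.23. Fdps had 0.20 (adjusted p = 0.701) and Abca1 -0.29 (adjusted p = 0.495). For Abca1 1 of the 6 anti-RGMa arrays lay above the isotype control mean.

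The anti-RGMa arrays were spread more widely than the others for these genes. Over the 37 genes the median standard deviation of log2 signal was 0.26 with anti-RGMa, 0.20 with isotype control antibody and 0.13 in naïve cord, beside 0.29, 0.28 and 0.21 over all genes. Anti-RGMa replicate 6 had the lowest signal of its group in 25 of the 37 genes and 15 of the 17 genes of the mevalonate and sterol ring steps. Isotype control replicate 1 had the lowest of its group in 18 of the 37 and in 13 of the 17. How often each was lowest over all genes was not counted. Sample weights, estimated over all genes, were lowest for these arrays, at 0.34 for anti-RGMa replicate 6 and 0.63 for isotype control replicate 1. Low ranks are thus not shown to be particular to the sterol genes. The mean over those 17 genes was 9.70 in anti-RGMa replicate 6 and 9.79 in isotype control replicate 1, and between 9.92 and 10.43 in the other EAE arrays. These arrays also had the highest macrophage marker means, 11.31 and 11.57, and neuron marker means of 10.91 and 10.72. Isotype control replicate 5, with a macrophage mean of 11.20 and a neuron mean of 10.84, had a sterol mean of 10.10. Conversely, anti-RGMa replicate 3 had a sterol mean of 9.92 with a macrophage mean of 10.21 and a neuron mean of 11.80. Naïve arrays had sterol means from 10.53 to 10.81, above all EAE arrays. Without anti-RGMa replicate 6, 0 of the 37 genes were called between the antibody groups and 1, Cyp46a1 (0.38), passed the adjusted threshold. In that setting 994 genes were higher and 509 lower at the adjusted threshold over all genes, in place of 1 and 0.

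**Figure D5:**
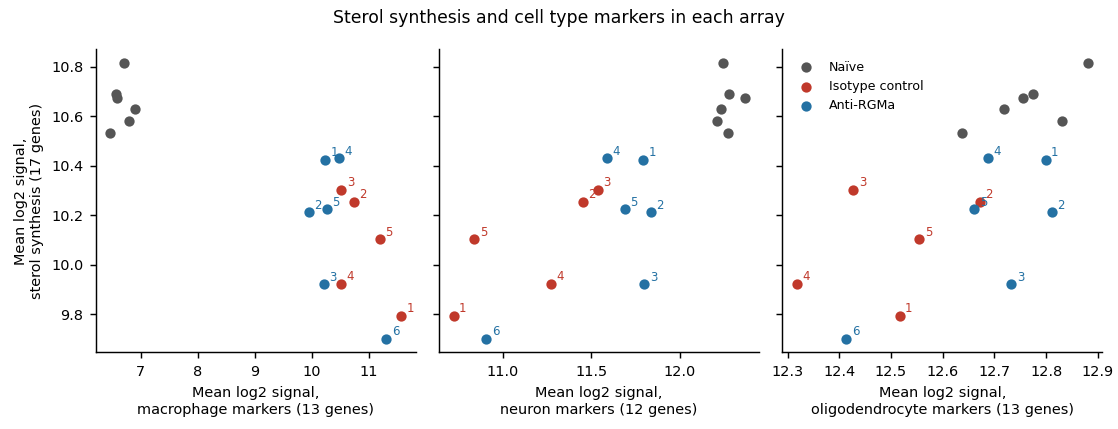
Mean log2 signal of the 17 genes of the mevalonate and sterol ring steps (vertical axis) against the mean of macrophage, neuron and oligodendrocyte markers (horizontal axes) in each array, with replicate numbers beside the EAE arrays. Anti-RGMa replicate 6 and isotype control replicate 1 lie lowest on the vertical axis, and all naïve arrays lie above all EAE arrays.

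Cell type markers moved in the same comparisons. Of 13 oligodendrocyte markers, 1 fell with the isotype control antibody and 7 were lower at the adjusted threshold, with a median of -0.28, and in the anti-RGMa group 0 fell, with a median of -0.05. Their array mean was 12.50 ± 0.13 with isotype control antibody (SD, n = 5), 12.68 ± 0.15 with anti-RGMa (n = 6) and 12.77 ± 0.09 in naïve cord (n = 6). Of 12 neuron markers, 11 fell with isotype control antibody and 7 with anti-RGMa, and 2 were called between the antibodies, both with more signal under anti-RGMa. Of 11 astrocyte markers, 5 fell and 1 rose with the isotype control antibody. All 13 macrophage markers rose with the isotype control antibody and 12 in the anti-RGMa group. In whole cord, fewer cells of a type and less RNA per cell cannot be told apart, and the part of these shifts in the lipid genes was not tested.

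Further genes of these pathways were counted from lists drawn up by function, again with earlier results of these data known. Of 10 measured genes around sterol synthesis and its control, 1 fell and 1 rose with the isotype control antibody, where 15.5% of all genes fell and 18% rose. Lbr, a nuclear membrane protein with the same reductase activity as Tm7sf2, rose by 0.69 (adjusted p = 3.62e-05), while Tm7sf2 fell by 0.78. Dhdds fell by 0.59 (adjusted p = 0.00192), and its partner subunit in dolichol synthesis, Nus1, had -0.31 (adjusted p = 0.000821). Aup1, a factor of protein degradation at the endoplasmic reticulum and lipid droplets, had 0.54 (adjusted p = 0.000642).

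Of 25 further fatty acid genes, 8 fell and 4 rose with the isotype control antibody, beside the same shares of all genes (15.5% and 18%). The 4 with the smallest p were Acss2, which makes acetyl-CoA from acetate (-0.98), Acsl6, an acyl-CoA synthetase of nervous tissue (-0.98), Scd3, another desaturase (-1.35), and Tecr, the last reductase of the elongation cycle (-1.14). Each of them also fell in the anti-RGMa group, by 0.75, 0.66, 1.07 and 0.74.

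Of 23 further genes of sterol efflux, storage and oxysterol formation, 9 rose and 2 fell in this comparison, beside 18% and 15.5% of all genes. Ch25h, which makes 25-hydroxycholesterol in activated myeloid cells, rose by 3.49 (adjusted p = 7.52e-08). Plin2, the coat protein of lipid droplets, rose by 1.96, Npc2, which hands cholesterol out of lysosomes, by 1.09, and Pltp, a phospholipid transfer protein, by 0.66. Across all 58 of these further genes, Ch25h was the only one called between the antibody groups, with -0.61 in the anti-RGMa group (limma, adjusted p = 0.308). That call was lost in 12 of the 27 settings, and over all 27 the value ran from -0.82 to -0.47.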

How the data were processed

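RNA of 17 spinal cords was hybridised to Affymetrix mouse whole-genome arrays. The deposited values are linear signal intensities, which the authors computed with MAS5, per the labels, and scaled to a trimmed mean of 500 in each array. The number of mice limits the precision. Log2 intensities were fitted here with limma 3.58.1 in R 4.3.3, in 1 model over the 3 groups, with no offset and no filter, and p-values were adjusted by Benjamini-Hochberg over all 18194 genes. Of 45101 probe sets, 34958 carried 1 gene symbol, 932 several and 9211 none. A threshold of unadjusted p under 0.05 and fold change over 1.5 follows the study's methods. Genes shown array by array were, per step, the called gene with the largest change, and of each further list the 4 genes with the smallest p in the isotype control comparison and any called between antibodies were named. Cyp46a1, Scd2 and Abcg1 were added after their values were seen. Srebf1 was also drawn, although Insig1 had the largest change of its step. The genes and lists were chosen with earlier results of these data known. The fit was tested on simulated data. Alternatives covered scaling, offset, filter, probe set choice, weights, blocks and left-out arrays.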

Additional observations from a re-analysis of the deposited data

Results flagged for a closer look

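Of 111 combinations of gene and group, 4 (3.60%) held an array far from the others by Dixon's criterion, which chance flags in about 1 in 20. Sqle and Cyp51, enzymes of the sterol ring step, were both highest in naïve replicate 4. Sqle was 11.5624 there and between 11.14 and 11.28 in the other naïve mice, and Cyp51 was 11.4304 there and between 10.96 and 11.13 in the others. Acly was 12.6529 in isotype control replicate 2 and between 12.21 and 12.28 in the other isotype control mice. Elovl6 was 9.611 in anti-RGMa replicate 6 and between 10.10 and 10.38 in the other anti-RGMa mice.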

How the results depend on the processing

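Of the 37 genes, the number higher with the isotype control antibody than in naïve mice was 2, and it was 1 under quantile normalization, centring on the median, an offset of 32 or sample weights, 4 without isotype control replicates 3, 4 and 5, and 1 to 2 when single mice were left out. The number higher at the adjusted threshold was 3, with 1 under centring on the median and 2 to 5 with single mice left out. The number lower was 12, with 22 at any probe set, a count added after seeing the data, and 10 to 15 with single mice left out, and 24 at the adjusted threshold became 13 without isotype control replicates 3, 4 and 5. In the anti-RGMa group the 2 higher genes became 1 under centring on the median, an offset of 32 or sample weights and 1 to 2 with single mice left out, and the 5 lower ones became 14 under centring on the median, 16 at any probe set and 4 to 7 with single mice left out. Between the antibody groups 0 to 1 genes were higher at the adjusted threshold with single mice left out. Among the 58 further pathway genes, the 1 lower in the anti-RGMa group than with the isotype control antibody became 0 under centring on the median, an offset of 32, sample weights or the replicate block, 2 without isotype control replicates 3, 4 and 5 and 0 to 1 with single mice left out, and 0 higher became 1 without those replicates and 0 to 2 with single mice left out. Me1 turned from -0.39 to 0.0152 in the isotype control comparison when its probe sets were averaged, since they oppose each other. The causes of the other changes were not tested. Replicate numbers did not pair the mice (r from -0.06 to 0.07 over 16 pairs), and the replicate block gave 13 lower and 2 higher with the isotype control antibody and 5 lower and 2 higher with anti-RGMa. Signal near background limits dim probe sets.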
